A study of Mus musculus with 6 samples.

Results

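The transcripts of YAP-TEAD transcription and of its best known targets were examined in mouse embryonic fibroblasts with and without guides against Zmat3. The set held 10 genes, taken by symbol from the 27179 rows of the deposited table, and all 10 were found: the factors Yap1 and Tead1, and 8 genes known as targets, Ctgf, Cyr61, Ankrd1, Amotl2, Crim1, Lats2, Axl and Ajuba. They were selected on membership of this pathway with earlier values of these same libraries in view (the level of Cyr61 in control library 3 and its knockout-to-control difference among them), so their values in the comparison of knockout with control are a description. All 6 libraries came from fibroblasts of the genotype Cas9+;E1A;HrasG12V, that is, cells with the Cas9 nuclease, the adenoviral E1A oncogene and an oncogenic Hras allele. Lentivirus delivered the guides, infected cells were selected, and 10 days of culture preceded RNA extraction. The control group had the negative control guides named EV, SPA and ACOCA in libraries 1, 2 and 3. The knockout group had Zmat3 guides 52.6, 51.5 and 54.8 in libraries 1, 2 and 3. Each library therefore carried a guide of its own, and the labels do not say whether the cultures started from the same cells or were clones.

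YAP (gene Yap1) and its paralogue TAZ (gene Wwtr1) are coactivators that have no DNA-binding domain and act through TEAD factors, which recognise the sequence CATTCC. The Hippo kinases STK3 and STK4 activate LATS1 and LATS2, which phosphorylate YAP and TAZ and keep them in the cytoplasm. In fibroblasts, cell spreading, stiff matrix and low cell density favour nuclear YAP and TAZ. Several targets feed back on the pathway: Lats2 encodes an inhibitory kinase, Amotl2 an angiomotin that holds YAP at junctions and in the cytoplasm, and Ajuba a LIM protein that restrains LATS kinases.

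The TEAD motif was looked for upstream of the members because several of them shifted in the same library, as described below. RefSeq promoter entries (GRCm38.p6) were found for 8 of the 10 members, without Ctgf and Tead1. In the 250 bases before the annotated start, CATTCC or its reverse complement GGAATG was present in 7 of these 8 genes (7 of their 9 windows), against 12.6% of 32851 promoter windows of the same length. The set was chosen as factors and known targets of this pathway, so this share is a description of the set. Lats2, in control library 3 at 1.98 times the highest other library, had no match in either of its windows. Axl and Yap1, at 0.833 and 1.07 times there, had a match. The motif started 103 bases before the start of Cyr61, at 210 and 123 bases for Ankrd1, at 65 bases for Amotl2, at 186 and 164 bases for Ajuba, at 79 bases for Crim1, at 233 bases for Axl and at 141 bases for Yap1. Neither the AP-1 motif TGANTCA, present in 6.75% of all windows, nor the CArG box bound by SRF, present in 1.47%, was found in any member on either strand, so no motif overlapped another. A match describes letters in a window, and binding was not measured. Sequences are shown for the 4 targets with entries that stood farthest above the other libraries in control library 3, 5′ to 3′ on the gene's strand, with each match in capitals. Cyr61 and Ajuba are given as the whole window. GENCODE M21 places exons of some Ankrd1 and Amotl2 transcripts inside theirs, so these are given as 30 bases around each match.
Cyr61, chr3:145649986-145650235, minus strand: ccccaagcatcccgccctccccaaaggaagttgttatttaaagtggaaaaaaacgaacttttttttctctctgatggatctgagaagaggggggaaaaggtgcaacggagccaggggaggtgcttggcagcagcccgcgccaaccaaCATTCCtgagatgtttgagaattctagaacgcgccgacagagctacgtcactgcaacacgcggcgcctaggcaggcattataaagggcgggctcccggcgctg
Ajuba, chr14:54577662-54577911, minus strand: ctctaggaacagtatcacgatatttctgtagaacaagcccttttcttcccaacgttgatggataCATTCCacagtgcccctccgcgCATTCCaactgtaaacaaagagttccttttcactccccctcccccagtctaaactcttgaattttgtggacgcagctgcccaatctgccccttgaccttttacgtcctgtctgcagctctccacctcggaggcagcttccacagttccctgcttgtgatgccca
Ankrd1, match at 210 bases, chr19:36120037-36120066, minus strand: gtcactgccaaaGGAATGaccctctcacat
Ankrd1, match at 123 bases, chr19:36119950-36119979, minus strand: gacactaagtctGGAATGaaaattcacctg
Amotl2, match at 65 bases, chr9:102717727-102717756, plus strand: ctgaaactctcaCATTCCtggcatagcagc

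Values are normalised read counts, that is, reads per gene scaled by a size factor for each library. Depth ran from 53253055 to 90256118 reads per library, and control library 3, with 60730974, lay inside that range. The fewest reads behind any value of a member were 195, for Ankrd1. Zmat3, the targeted gene, encodes a p53-induced zinc finger RNA-binding protein. It stood at 17169, 15868 and 17434 in control libraries 1, 2 and 3 and at 11421, 4912 and 4960 in knockout libraries 1, 2 and 3. Knockout library 1 kept 67.9% of the control mean, against 29.2% and 29.5% in the others. Control library 3 stood apart from the rest, with a mean correlation of 0.941 with the other libraries against 0.969 to 0.975 for those. Hras was at 9789 there and between 3125 and 5117 elsewhere. Because of this, fold changes of knockout over control are given with and without that library.

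The labelled cell type was checked against its markers. The 10 fibroblast markers summed to 159553 to 197165 in control and 161646 to 193885 in knockout, nearly all of it Vim, an intermediate filament gene of mesenchymal cells. Pdgfrb, a growth factor receptor of fibroblasts, stood at 1407 in control library 3 and 3578 to 4650 elsewhere. In all, 5 of the 10 fibroblast markers were lowest in that library and 3 highest. The collagen Col3a1 was at 198.2 there and 2407 to 3546 elsewhere, Col1a1 at 61.4 against 204.3 to 488.9, the proteoglycan gene Dcn at 5.90 against 73.9 to 109.5, and the receptor Pdgfra at 424.8 against 1525 to 2384. Lum was at 0 in every library, Thy1 reached 5.42 at most and Col1a2 reached 14.2. The 6 epithelial markers summed to 12408 in control library 3 and 19151 to 29600 elsewhere, mostly Krt18 in that library and mostly Epcam in the others, with Krt5 at 0 in every library. The 6 leukocyte markers summed to 1243 in control library 3 and 5823 to 9646 elsewhere, mostly Cd68, and Ptprc, which defines leukocytes, did not exceed 8.26. The 4 endothelial markers summed to 180.5 there and 361.7 to 720.2 elsewhere. The 7 muscle markers, which matter because Ankrd1 is abundant in muscle, summed to 339.8 there and 1591 to 1846 elsewhere, mostly Des, and Myod1 was at 0 in every library. Only 1 of the 7, Des, was lowest in control library 3, and 4 were highest. Of these, Tnnt2 was at 63.7 against 6.35 to 26.6 elsewhere, and Myh7, Myh6 and Myog did not exceed 17.7. That library was also highest for 3 epithelial, 3 leukocyte and 1 endothelial markers, and lowest for 1, 1 and 2. The part of these shifts in the results below was not tested.

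In control library 3 most of the target genes were far above their level in every other library, while both factors were not. Ctgf was 18.0 times the next highest library there, Ankrd1 14.7 times, Cyr61 6.20 times, Amotl2 4.96 times and Ajuba 2.70 times. With that library set aside, Cyr61 was 1.91 times as high in knockout as in control. Whether the level of a transcript reflects more cells with it or more RNA per cell cannot be told apart in bulk RNA.

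**Figure D1:**
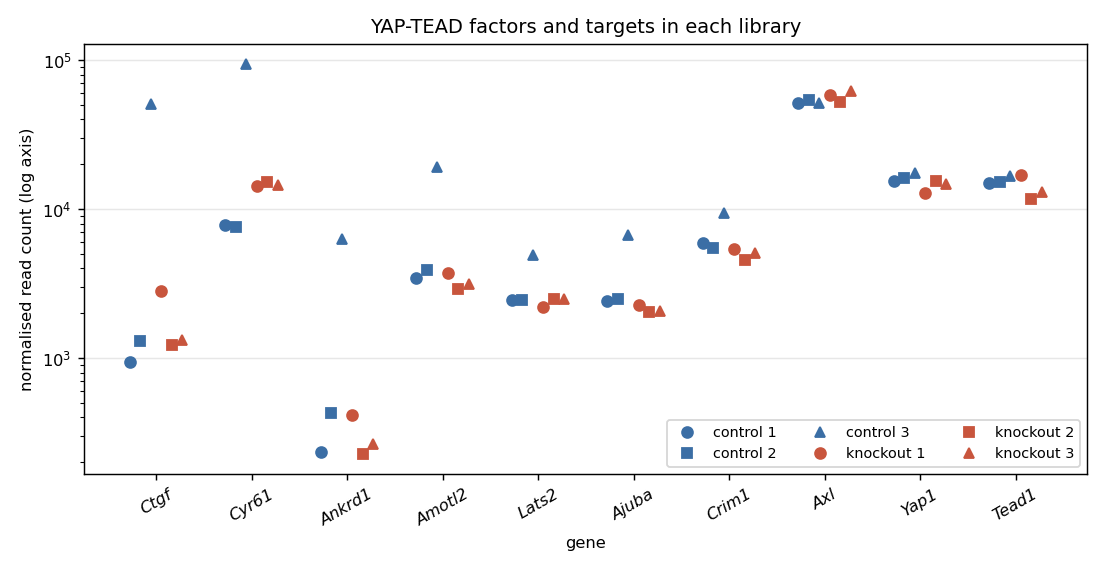
Normalised read count (log axis) of the 10 genes in each library. Circles, squares and triangles are libraries 1, 2 and 3, with control in blue and knockout in red. The blue triangle of control library 3 lies far above the other points for Ctgf (51002), Cyr61 (94991), Ankrd1 (6261) and Amotl2 (19325), and close to them for Yap1, where it is just the highest, Tead1, where it lies among them, and Axl, where it is just the lowest.

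Ctgf and Cyr61 encode secreted matrix-associated proteins of the CCN family, which bind integrins and are standard readouts of YAP activity. Ctgf (also called Ccn2, chromosome 10, 24595442 to 24598683, plus strand, GRCm38) stood at 945.1, 1302 and 51002 in control libraries 1, 2 and 3. In knockout libraries 1, 2 and 3 it stood at 2834, 1228 and 1323. Control library 3 was thus the highest and knockout library 1 the second highest, while the other 4 libraries lay close together. The control mean was 17750 ± 28798 (SD, n = 3) and the knockout mean 1795 ± 901 (SD, n = 3), so that the control SD exceeded its mean. Without control library 3 the control mean was 1124 ± 253 (SD, n = 2), and the knockout libraries overlapped it.

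Cyr61 (also called Ccn1, chromosome 3, 145646976 to 145649981, minus strand), the other CCN gene, with a single TEAD motif in the window shown above, stood at 7831, 7553 and 94991 in control libraries 1, 2 and 3. It stood at 14261, 15313 and 14478 in knockout libraries 1, 2 and 3. The knockout libraries lay close to each other, above control libraries 1 and 2 and far below control library 3. Their mean was 14684 ± 556 (SD, n = 3), against 36792 ± 50402 (SD, n = 3) for all controls and 7692 ± 196 (SD, n = 2) without control library 3. Among the 10 genes Cyr61 had the least spread in knockout, with an SD of 3.78% of its mean.

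Ankrd1, Amotl2 and Ajuba also had their highest value in control library 3. Ankrd1 (chromosome 19, 36111961 to 36120099, minus strand), an ankyrin repeat protein of muscle sarcomeres and nuclei that is induced by YAP and by stretch, stood at 233.3, 424.6 and 6261 in control and at 413.9, 225.2 and 265.6 in knockout libraries 1, 2 and 3. Outside control library 3 the groups overlapped, with a control mean of 329 ± 135 (SD, n = 2) and a knockout mean of 302 ± 99.3 (SD, n = 3). Amotl2 (chromosome 9, 102716672 to 102733418, plus strand) stood at 3452, 3896 and 19325 in control and at 3706, 2925 and 3140 in knockout. Here too control library 3 was the highest, and knockout library 1 lay between control libraries 1 and 2.

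Ajuba (chromosome 14, 54567472 to 54577558, minus strand), the LIM protein, stood at 2401, 2495 and 6725 in control and at 2255, 2043 and 2085 in knockout libraries 1, 2 and 3. All 3 knockout libraries were below all 3 control libraries. Without control library 3 the means were 2448 ± 66.8 (SD, n = 2) and 2128 ± 112 (SD, n = 3), still with no overlap.

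Lats2 and Crim1 showed the same library on top with a smaller gap. Lats2 (chromosome 14, 57689662 to 57758388, minus strand), the inhibitory kinase, stood at 2459, 2454 and 4935 in control and at 2214, 2493 and 2496 in knockout, with control library 3 at 1.98 times the next highest library. The other 5 libraries spanned 2214 to 2496 with the groups mixed. Crim1 (chromosome 17, 78200248 to 78376592, plus strand), a transmembrane protein with repeats that bind growth factors of the TGF-beta family, stood at 5944, 5506 and 9390 in control and at 5435, 4581 and 5104 in knockout. The gap of control library 3 to the next highest library was 1.58 times, and all knockout libraries were below all controls, by a small margin to control library 2.

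Axl did not share this pattern. Axl (chromosome 7, 25757273 to 25788705, minus strand), a receptor tyrosine kinase for the ligand GAS6, stood at 51660, 54388 and 51502 in control and at 58481, 52813 and 61797 in knockout libraries 1, 2 and 3. The lowest library was control library 3, with control library 1 just above it. The control mean, 52516 ± 1623 (SD, n = 3), and the knockout mean, 57697 ± 4543 (SD, n = 3), differed by little more than the knockout SD, and the groups overlapped.

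Neither factor stood far above the other libraries in control library 3. Yap1 (chromosome 9, 7931999 to 8004596, minus strand) stood at 15379, 16256 and 17453 in control and at 12890, 15382 and 14781 in knockout. The highest library was control library 3, at 1.07 times the next library, and the groups touched at control library 1 and knockout library 2. Tead1 (chromosome 7, 112679318 to 112906807, plus strand), which binds the motif, stood at 15002, 15316 and 16638 in control and at 16848, 11684 and 13013 in knockout. Knockout library 1 was the highest and the other knockout libraries were the lowest, so the groups overlapped.

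Per kilobase of annotated exon, where levels of different genes can be set side by side, Axl had the highest median over the 6 libraries, at 10650 normalised counts per kb. Cyr61 followed at 7117, then Yap1 at 1661, Tead1 at 1117, Crim1 at 912.5, Ajuba at 638.4, Amotl2 at 569.1, Ctgf at 458.9, Lats2 at 355.2 and Ankrd1 at 117.7. Between neighbours in this order only Cyr61 and Yap1, and Yap1 and Tead1, had ranges over the libraries that did not overlap. In control library 3 the order changed, with Cyr61 at 47049, Ctgf at 17827 and Axl at 10233 counts per kb. Wwtr1, which encodes TAZ and was named here after its values were seen, had a median of 3851, above Yap1 in each library.

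The excess in control library 3 was set beside all 14777 genes that passed the filter on low values, which all 10 members also passed. Control library 3 was the highest of the 6 libraries for 8 of the 10 members and for 36.8% of all tested genes. It was more than 2 times the next highest library for 5 members (Ctgf, Cyr61, Ankrd1, Amotl2 and Ajuba) and for 2.80% of tested genes. It was the lowest for 1 member, Axl, and for 36.6% of tested genes. Ranked by the ratio of control library 3 to the next highest library, Ctgf was number 1 of 14777, Ankrd1 number 3, Cyr61 number 18, Amotl2 number 26 and Ajuba number 109. Lats2 was number 431 and Crim1 number 1049, whereas Yap1, Tead1 and Axl were numbers 4510, 5604 and 7620. The members were chosen with this library's values known, so these ranks are a description of the library.

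**Figure D2:**
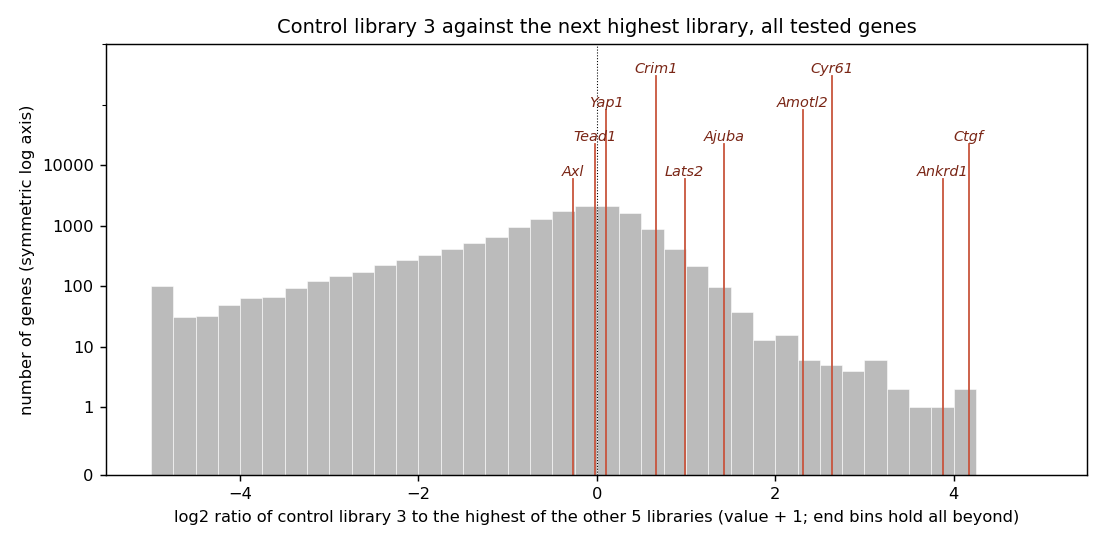
Number of genes (symmetric log axis) by the log2 ratio of control library 3 to the highest of the other 5 libraries, for 14777 tested genes. Red lines mark the 10 members, with Ctgf at 4.17 and Ankrd1 at 3.88 at the right end and Tead1, Yap1 and Axl near 0.

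The comparison of knockout with control asks which transcripts differ when Zmat3 is targeted. Over all 6 libraries 9 of the 10 members had a log2 fold change below 0, and their median was -0.40 against 0.015 for all tested genes (-0.70 when control library 1 is left out and -0.73 when control library 2 is). None passed limma's test on log2(value + 1) at an FDR of 0.05, which called 0.00% of tested genes. The targeted gene Zmat3 was thus not called either, at -1.36 (SE 0.33, limma adjusted p = 0.371), although DESeq2 over all 6 libraries called it (DESeq2 adjusted p = 0.0441). No member had an unadjusted limma p under 0.05, as did 1948 of all genes, and edgeR called no gene either. The limma log2 fold change was -1.26 (SE 1.46) for Ctgf, -1.55 (SE 1.15) for Ankrd1, -0.98 (SE 0.63) for Amotl2 and -0.28 (SE 0.94) for Cyr61. DESeq2 on the recovered reads called 0.904% of the genes it tested and none of the 7 members it tested. It gave no p-value for Ctgf, Cyr61 and Ankrd1, so these could not be called. For these 3 genes and Amotl2 its log2 fold changes, fitted on counts, were farther from 0 than limma's, at -3.30 for Ctgf, -2.93 for Ankrd1, -1.45 for Amotl2 and -1.32 for Cyr61. Without control library 1 DESeq2 called Ankrd1 (DESeq2 adjusted p = 0.0342) and Ajuba (DESeq2 adjusted p = 0.0349) lower, as 2 of the 2142 genes it called then (14.9% of those tested), while limma called none. It called 0.528% without control library 2 and 0.390%, 0.169% and 0.148% without knockout libraries 1, 2 and 3, with no member among them. Ctgf again had no p-value with a knockout library left out. Of the members, 2 (Ajuba and Crim1) had all knockout libraries below all controls, as did 14.4% of tested genes, and no member had all of them above, as did 13.2%.

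Without control library 3 the picture reversed for Ctgf and Cyr61 and shrank for the rest. The members' median was -0.13, against 0.0053 for all genes. Cyr61 had a limma log2 fold change of 0.93 (SE 0.08, limma adjusted p = 0.0473) and was higher in 3 of 3 knockout libraries than in control libraries 1 and 2. It was the only member called, among 0.0338% of tested genes. Limma with 5 libraries calls it by a narrow margin, edgeR gave an adjusted p of 0.0406, and DESeq2, which called 5.30% of genes, gave 2.8e-21. The set was chosen with this difference of Cyr61 in view, so these p-values are a description and no independent support. They also rest on control libraries 1 and 2, which lay close together, at 7831 and 7553. Ctgf had a log2 fold change of 0.58 (SE 0.37, limma adjusted p = 0.479), with knockout library 1 farthest above both controls. Ankrd1 was at -0.11 (SE 0.36), Amotl2 at -0.18 (SE 0.13), Lats2 at -0.04 (SE 0.10) and Ajuba at -0.20 (SE 0.10). Crim1 was at -0.19 (SE 0.11), Yap1 at -0.14 (SE 0.11), Tead1 at -0.15 (SE 0.16) and Axl at 0.12 (SE 0.11). With control library 3 set aside, 1 member (Cyr61) had all knockout libraries above both controls, as did 17.4% of tested genes, and 2 (Ajuba and Crim1) had all below, as did 17.6%.

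**Figure D3:**
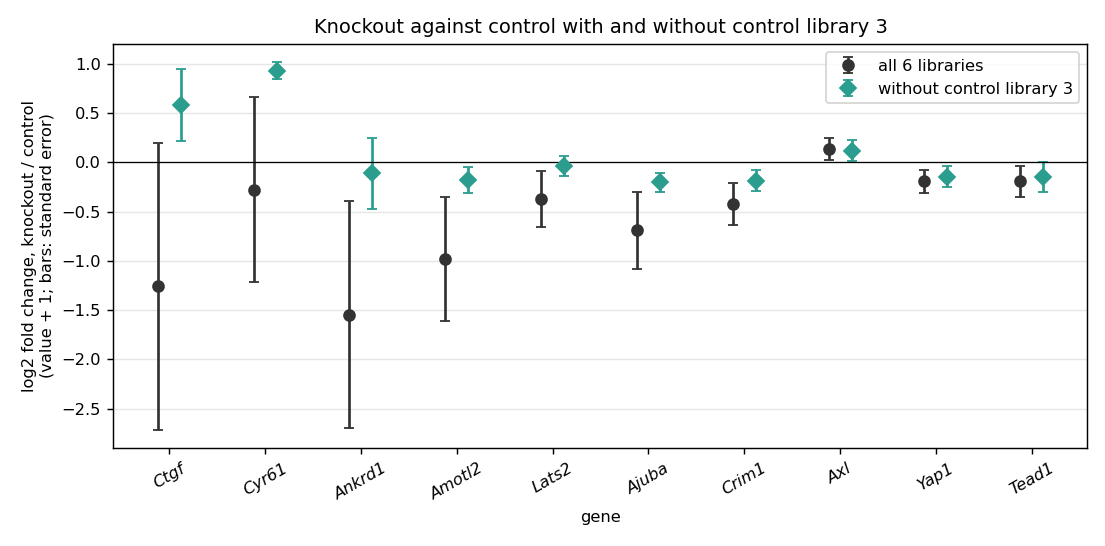
Limma log2 fold change of knockout over control for the 10 genes, with bars for the standard error, over all 6 libraries (black circles) and without control library 3 (green diamonds). Ctgf goes from -1.26 to 0.58 and Cyr61 from -0.28 to 0.93, while Axl, Yap1 and Tead1 hardly move.

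Of 16 listed paralogues of the members, 13 were tested, and their median log2 fold change was 0.074 (-0.0027 with control library 3 left out). None was called by limma or DESeq2 over all libraries or with any 1 library left out. In control library 3, 7 of the 16 were at their lowest and 3 at their highest. Wwtr1 (TAZ) stood at 18124, 16758 and 11777 in control and at 18682, 19486 and 19945 in knockout libraries 1, 2 and 3, so control library 3 was the lowest. Its knockout libraries were all above all controls, as for 13.2% of tested genes. Its limma log2 fold change was 0.34 (SE 0.17, limma adjusted p = 0.377), and 0.15 without control library 3. Lats1, the sister kinase of Lats2, had -0.38 (SE 0.14) and -0.27 without that library. Limd1, a LIM protein related to Ajuba, had -0.31 (SE 0.16) and -0.15 without it, and Wisp1, a further CCN gene, 0.30 (SE 0.15) and 0.19 without it. Tead2 and Tead3, named after their values were seen, were also lowest in control library 3, at 7961 and 1267, while Tead4 was highest there, at 4087.

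Of 15 Hippo kinases, adaptors and TEAD cofactors, all were tested and 11 had a log2 fold change below 0. The median was -0.19 (-0.07 with control library 3 left out). None was called by limma over all libraries or with any 1 left out. DESeq2 called 2, Stk4, a Hippo kinase, and Mob1b, both lower, without control library 1, where it called 14.9% of all genes, and none otherwise. For 8 of the 15 control library 3 was the highest library, and for 1 the lowest. Nf2, the scaffold merlin that activates LATS kinases, stood at 10816, 10746 and 12862 in control and at 8592, 9220 and 9182 in knockout libraries 1, 2 and 3. All knockout libraries were below all controls, as for 14.4% of tested genes. The log2 fold change was -0.35 (SE 0.11, limma adjusted p = 0.371), and -0.26 without control library 3. Mob1a and Mob1b, coactivators of LATS kinases, had -0.32 (SE 0.13) and -0.53 (SE 0.20), and Taok1, a kinase upstream of STK3 and STK4, -0.33 (SE 0.11). Without that library these were -0.25, -0.36 and -0.28.

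Other conserved YAP and TAZ targets did not move as a block. Of 15 listed, 14 were tested, 8 above and 6 below 0, and the median log2 fold change was 0.14 (0.11 with control library 3 left out). None was called by limma over all libraries or with any 1 left out, or by DESeq2 over all libraries or without control library 2 or 3. DESeq2 called Foxf2, Gadd45a and Ccdc80 higher without control library 1, where it called 14.9% of all genes. It called Igfbp3 lower without knockout libraries 1, 2 and 3 in turn, where it called 0.390%, 0.169% and 0.148%. In control library 3, 4 of the 15 were at their highest and 6 at their lowest. Asap1, which regulates ARF proteins and focal adhesions, was highest there at 12359, against 7115 to 8230 elsewhere. Nt5e, an ectoenzyme that makes adenosine, was lowest there at 683.2, against 2042 to 3534 elsewhere. Gadd45a, a p53-induced stress gene, was also lowest there at 626.6, against 1079 to 2426. Foxf2, a forkhead factor of mesenchyme, stood at 819, 289.2 and 522.7 in control and 878.4, 832.8 and 736.3 in knockout. Igfbp3, left out by the filter and named after its values were seen, was at 106.2 in control library 3 and listed at 0 in the other 5.

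**Figure D4:**
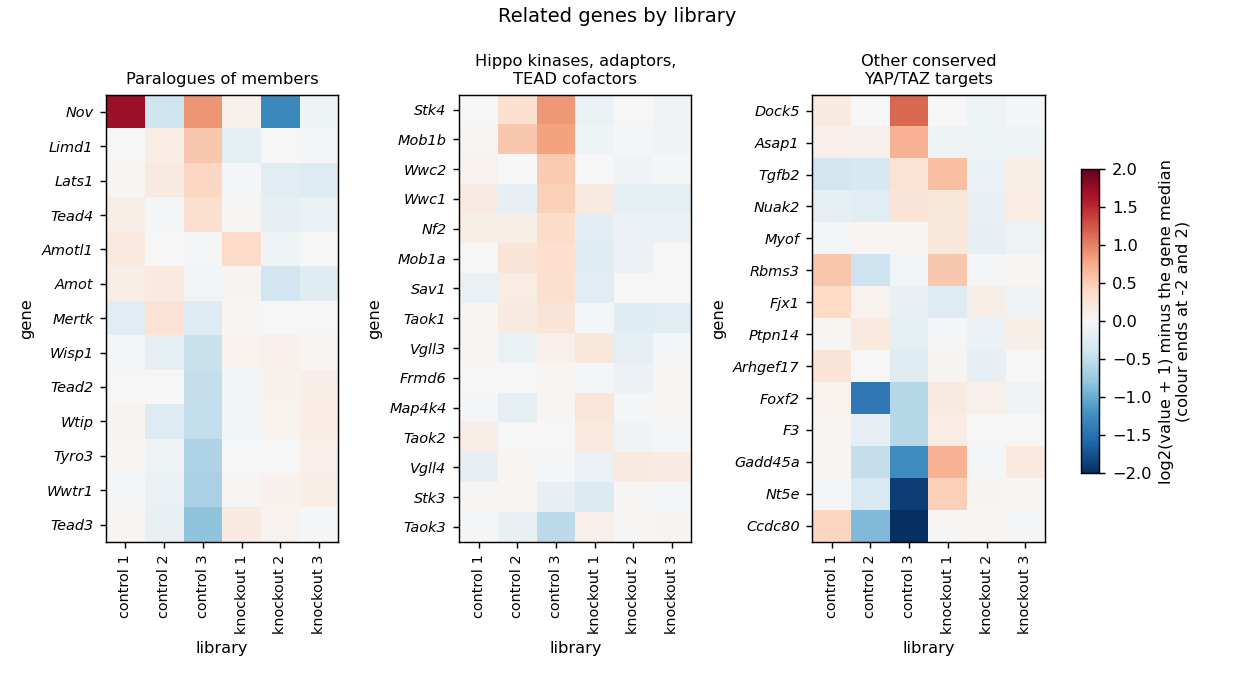
Colour gives log2(value + 1) minus the gene's median over the 6 libraries, for the tested genes of 3 lists. In the column of control library 3, Tead3, Wwtr1 and Tead2 are blue (low), Stk4 and Mob1b red (high), and the other conserved targets run from red (Dock5) to dark blue (Nt5e, Ccdc80).

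Ctgf and Cyr61 also respond to SRF, an actin-regulated factor, and to serum, so genes of these responses were set beside them. Of 12 SRF and actin genes 11 were tested, and their median log2 fold change was -0.04 (0.12 with control library 3 left out). DESeq2 called none over all libraries and 3 without control library 3: Srf itself and Flna, an actin crosslinker, both lower, and Tpm1, a tropomyosin, higher, in a fit that called 5.30% of all genes. Without control library 1, where it called 14.9%, the 3 called were Srf, Flna and the actin-binding Tagln, all lower, and without any other library it called none. Tpm1 stood at 24490, 26534 and 57057 in control and 32550, 32302 and 32661 in knockout libraries 1, 2 and 3. That order of libraries, with knockout above control libraries 1 and 2 and below control library 3, is also the order of Cyr61. Srf and Flna were likewise highest in control library 3, at 9816 and 47039, but Acta2, smooth muscle actin, was lowest there, at 27.1 against 77.6 to 142.8. In all, 4 of the 12 were at their highest in that library and 3 at their lowest, against 36.8% and 36.6% of tested genes. Cnn1, a calponin, had a limma log2 fold change of 0.82 (SE 0.35), and 0.89 (SE 0.38) without control library 3.

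Of 12 serum early genes all were tested, and their median log2 fold change was 0.69 (0.50 with control library 3 left out). Limma called none, and DESeq2 called Atf3, Ier3 and Fosb higher over all libraries and Atf3 and Ier3 without control library 3, against 0.904% and 5.30% of all genes. The calls ended with either of 2 knockout libraries left out: DESeq2 called 0 of the 12 without knockout library 2 and 0 without knockout library 3, where the DESeq2 median log2 fold change was 0.56 and 0.66. It called 1, Atf3, without control library 2 and 4 higher without knockout library 1, where it called 0.528% and 0.390% of all genes. Without control library 1, where it called 14.9% of all genes, it called 5 higher and 1 lower. Control library 3 was the lowest for 7 of the 12, including Fos, at 1313 against 2991 to 12076 elsewhere, and the highest for 2. Atf3 stood at 1575, 1665 and 1992 in control and 2956, 4681 and 4248 in knockout. All knockout libraries were above all controls, as for 13.2% of tested genes.

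The genes whose centred log2 profile over the 6 libraries lay nearest to that of Cyr61, of 13015 with a mean of at least 50, were Khdrbs3, Pax6, Tspyl3, Fut4 and Kirrel3. Their root mean square differences from it ran from 0.31 to 0.47 on the log2 scale. The nearest member was Amotl2, at 0.56. Nearest to Ctgf were Tspyl3, Ebf2, Cspg4b, Ror2 and S100a7a, at 0.63 to 0.92, and the member Ankrd1 was nearer than any of them, at 0.47. Khdrbs3 stood at 592.4 and Tspyl3 at 723.3 in control library 3, against 43.9 to 115.7 and 32.2 to 102.1 elsewhere, so that this library sets the likeness. The mean used for the cut included it, and Kirrel3, Cspg4b and S100a7a reached 50 only through it. Ankrd1 was chosen with the values of this library in view, so its nearness to Ctgf is a description.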

How the data were processed

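RNA sequencing libraries of 3 control and 3 knockout cultures were made from total RNA. The submitters' processing notes name STAR, DESeq2 and the build mm10. Counter, strand setting and annotation are not stated there, so reads of overlapping antisense genes could not be told apart. The authors deposited a signal per gene and library, read counts divided by 1 size factor. All values (100%) were whole multiples of 1 read within 0.001, so reads were recovered. The members and the related lists were chosen with earlier results of these data known. The main test, limma 3.58.1 (trend, robust, two-sided, R 4.3.3) on log2(value + 1), was run on the whole table after a filter (edgeR's filterByExpr, minimum 10), with Benjamini-Hochberg adjustment over 14777 genes. The log2 fold changes understate changes of low genes. As alternatives, edgeR 4.0.16 (quasi-likelihood, TMM) and DESeq2 1.42.0 ran on recovered reads, and p-values DESeq2 left blank stayed blank. Each test was tried on simulated reads. Genes named from a related list were up to 4 with the smallest unadjusted p and those DESeq2 called, and most others are marked as chosen after their values were seen. Hras, Dock5 and the single markers given with values above 0 were also named outside this rule, with their values in view. Genes nearest in profile were the 5 with the smallest root mean square difference. Exon lengths and gene positions are from GENCODE M21 (GRCm38), and promoters from RefSeq (GRCm38.p6). Every pair of libraries differed by more than sampling noise (lowest chi-square per degree of freedom 17.9). The p-values measure the spread between these libraries, each with its own guide. Alternatives changed the test, scaling, pseudocount, filter, threshold, block and libraries.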

Additional observations from a re-analysis of the deposited data

How the results depend on the processing

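Limma called 0 genes and 0 members with TMM scaling, a pseudocount of 8, no filter on low values, an FDR of 0.10 and the replicate block. On recovered reads edgeR called 0 of each, whereas DESeq2 called 130 genes and 0 of the 7 members it tested. With 1 library left out, limma called 0 to 5 genes and 0 to 1 members, the highest of each without control library 3, where edgeR also called 5 genes and 1 member. DESeq2 with 1 library left out, an alternative chosen after seeing the data, called 2142, 87 and 701 genes without control libraries 1, 2 and 3 and 61, 25 and 27 without knockout libraries 1, 2 and 3. The members called were 2 without control library 1, 1 without control library 3 and 0 otherwise.

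With 1 library left out, the limma log2 fold change ran from -2.29 to 0.58 for Ctgf and from -0.89 to 0.93 for Cyr61, positive only without control library 3. There DESeq2 gave 0.67 for Ctgf and 0.93 for Cyr61, and edgeR gave 0.68 and 0.94. The values of the other 8 members kept their sign under every alternative run. The limma median of the members was lowest with control library 2 left out, at -0.73, and highest with control library 3 left out, at -0.13.

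The replicate numbers did not pair the libraries: same-numbered libraries correlated at 0.26, 0.20 and -0.02 in their deviations from the group means, and not every library correlated best with its own number. In this balanced layout the replicate block cannot change a log2 fold change, only its SE and p-value. At the depth of these libraries each value of a member rests on at least 195 reads.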
